A study of Mus musculus with 7 samples.

Results

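The 10 genes described here encode the collagen prolyl 4-hydroxylases (P4ha1, P4ha2, P4ha3 and their shared subunit P4hb), the lysyl hydroxylases (Plod1, Plod2 and Plod3) and the lysyl oxidases Lox, Loxl1 and Loxl2. They are 10 of the 24047 genes in the count table, taken by symbol as enzymes of collagen modification, and the set was chosen by a measured value, the difference of P4ha2 and Loxl2 between the Ofd1 and Kif3a guides. Their values were measured by RNA-seq in SMB21 cells, a mouse medulloblastoma line that grows as neurospheres, a tumour type of the cerebellum. All groups shared the Ptch mutant background given in the labels (strain Ptch1tm1Mps/J, adult), in which the Hedgehog pathway is active because its receptor Ptch1 is defective. The cells had received a lentiCRISPR vector, which carries Cas9 and a guide RNA, directed against Ofd1 (3 libraries, Ofd1 CRISPR), against Kif3a (2 libraries, Kif3a CRISPR) or against GFP (2 libraries, GFP control), and RNA was taken 2 weeks after infection. Ofd1 encodes a protein of the centriole and centriolar satellites, and Kif3a a kinesin-2 motor subunit; both serve the assembly of primary cilia. The guides were delivered to a single cell line, the labels do not say whether the cells were cloned or a pool, and they give no separate infection for each replicate, so p-values measure only the spread between these libraries.

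Collagen chains are modified in the endoplasmic reticulum before they are secreted. Prolyl 4-hydroxylase, a tetramer of a catalytic alpha subunit with the disulfide isomerase P4hb, hydroxylates prolines and so makes the triple helix stable at body temperature; lysyl hydroxylases hydroxylate lysines, which then carry sugars and form stronger cross-links. Outside the cell, the copper-dependent lysyl oxidases oxidise lysines of collagen and elastin to aldehydes, which start the cross-links. The hydroxylases need oxygen, iron and 2-oxoglutarate, and P4ha1, P4ha2, Plod2, Lox and Loxl2 are known targets of hypoxia-inducible factors (HIF) in other cell types.

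The libraries held 17961767 to 23022701 counts, and 12875 genes had enough counts to be tested, 9 of the 10 members among them. The targeted genes were a limited check of the labels, since an edited gene can still be transcribed. Ofd1 had 21.0, 20.03 and 22.0 CPM (counts scaled to the library total, with TMM factors) in Ofd1 CRISPR, 31.7 and 29.0 CPM in Kif3a CRISPR, and 22.6 and 23.2 CPM in GFP control. Kif3a had 90.6, 93.1 and 97.4 CPM in Ofd1 CRISPR, 73.9 and 60.5 CPM in Kif3a CRISPR, and 104 and 104 CPM in GFP control. Kif3a was thus lowest in Kif3a CRISPR, whereas Ofd1 CRISPR differed from GFP control in Ofd1 by a log2 fold change of −0.12 (SE 0.0910, adjusted p = 0.398, edgeR quasi-likelihood test). Markers of granule neuron progenitors, the cells of origin of this tumour type, summed to 3284 to 3757 CPM in Ofd1 CRISPR, 3498 to 3617 CPM in Kif3a CRISPR and 3117 to 3160 CPM in GFP control, with all 9 detected in every library. Behind these sums, in each comparison with GFP control, 4 of the 9 rose, 3 fell and 2 did not pass. The shares called over all tested genes were 22.5% over all mutant libraries, 14.9% in Ofd1 CRISPR and 20.1% in Kif3a CRISPR.

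Of the prolyl 4-hydroxylase genes, P4ha1, P4ha2 and P4hb are shown by the bases just before their transcription start, because P4ha1 and P4ha2 were lower in every mutant library while P4hb, their partner subunit, differed less. The sequences are RefSeq's for GRCm38.p6, each the 250 bases that end at the start, written 5′ to 3′ on the strand of the gene. They lie at chr10:59323046-59323295 (plus strand) for P4ha1, chr11:54100674-54100923 (plus strand) for P4ha2 and chr11:120573254-120573503 (minus strand) for P4hb. Capitals mark ACGTG or GCGTG, the core letters of the HIF response element, which read CACGT or CACGC where they lie on the other strand.
P4ha1: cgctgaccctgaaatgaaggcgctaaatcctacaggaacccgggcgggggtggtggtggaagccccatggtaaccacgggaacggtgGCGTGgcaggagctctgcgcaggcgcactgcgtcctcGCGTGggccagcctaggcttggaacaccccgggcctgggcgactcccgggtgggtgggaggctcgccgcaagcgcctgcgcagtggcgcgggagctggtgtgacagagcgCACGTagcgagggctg
P4ha2: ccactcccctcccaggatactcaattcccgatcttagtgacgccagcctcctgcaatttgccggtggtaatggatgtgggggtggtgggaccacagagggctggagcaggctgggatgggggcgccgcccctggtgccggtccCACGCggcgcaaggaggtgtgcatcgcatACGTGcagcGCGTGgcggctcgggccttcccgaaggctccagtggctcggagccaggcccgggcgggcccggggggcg
P4hb: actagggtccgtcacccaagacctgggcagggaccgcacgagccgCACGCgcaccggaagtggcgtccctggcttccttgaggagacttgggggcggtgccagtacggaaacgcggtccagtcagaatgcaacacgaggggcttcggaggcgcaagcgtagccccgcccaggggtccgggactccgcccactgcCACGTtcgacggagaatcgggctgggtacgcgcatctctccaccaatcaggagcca
Over the whole window of 300 bases (250 before and 50 after the start, both strands, matches that overlap each other counted separately), P4ha1 held 3 matches, P4ha2 held 4, P4hb 3, Plod1 2, Plod3 4 and P4ha3 0. The matches of P4ha1 started 163, 126 and 16 bases before the start, and those of P4ha2 107, 78 and 69 bases before it with another at position 11 after it, outside the printed bases. At least 1 match was present in 43.8% of all 32851 such windows, at least 3 in 8.93% and at least 4 in 3.86%. Plod3 carried as many matches as P4ha2 and P4hb as many as P4ha1. A match describes letters in a window and not a bound site. RefSeq windows for Plod2, Lox, Loxl1 and Loxl2 were not used here.

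Per length of transcript, the prolyl 4-hydroxylase beta subunit was the most abundant of these mRNAs. P4hb averaged 107 CPM per kb in Ofd1 CRISPR, 105 in Kif3a CRISPR and 120 in GFP control. In GFP control, P4ha1 and Plod2 came next with 41.9 and 39.3 CPM per kb, followed by Loxl2 with 25.5, P4ha2 with 17.9, Plod3 with 17.1, Plod1 with 9.95, Loxl1 with 1.09 and Lox with 0.241 CPM per kb. Within that order the control libraries of P4ha1 (43.7 and 40.1) and of Plod2 (40.01 and 38.6) came close to each other without overlapping, as did those of P4ha2 (18.2 and 17.6) and of Plod3 (17.1 and 17.1). The order of these means was not kept in the mutants. In Ofd1 CRISPR P4ha2, with 8.58 CPM per kb, stood below Plod3 (15.4) and Plod1 (10.4). Loxl2 (12.2) stood below Plod3 there, though not in replicate 3 (15.2 against 13.6). In Kif3a CRISPR P4ha2 (2.94) and Loxl2 (4.64) stood below both Plod3 (14.2) and Plod1 (9.23). Lengths are those of the longest GENCODE M21 transcript paired with a curated RefSeq transcript. A longer choice lowers the level of P4ha2 most (2263 bases against 6239 for its merged exons), so its place in the order depends on the length used.

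Expression of the catalytic prolyl 4-hydroxylase subunits P4ha1 and P4ha2 and of Plod2 and Loxl2 was lower in all 5 mutant libraries than in both controls. Each of these 5 mutant libraries was weighted equally against GFP control. Of the 7 tested members not picked for their difference between guides, 3 fell (P4ha1, Plod2 and Lox), 1 rose (Loxl1) and 3 did not pass (P4hb, Plod1 and Plod3). No overlap with the controls was seen in 6 members, all lower (P4ha1, P4ha2, P4hb, Plod2, Plod3 and Loxl2), and in Loxl1, higher; of all tested genes 20.7% had all mutant libraries below both controls and 20.6% above both. Over all 12875 genes tested the same fit called 12.1% lower and 10.4% higher at an adjusted p under 0.05 (22.5% in all), and the median log2 fold change was 0.006. With equal spread in all libraries this comparison is uncorrelated with the difference between the guides by which P4ha2 and Loxl2 were picked. That condition was not met closely: P4ha2 had 4.97 and 8.36 CPM in Kif3a CRISPR and 41.1 and 39.7 CPM in GFP control. A gene picked for a difference between guides is also more likely to differ from GFP control. A p-value of P4ha2 or Loxl2 would thus not be free of that choice, so both are described by fold change and SE alone. The plot of levels by library shows all members.

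**Figure D1:**
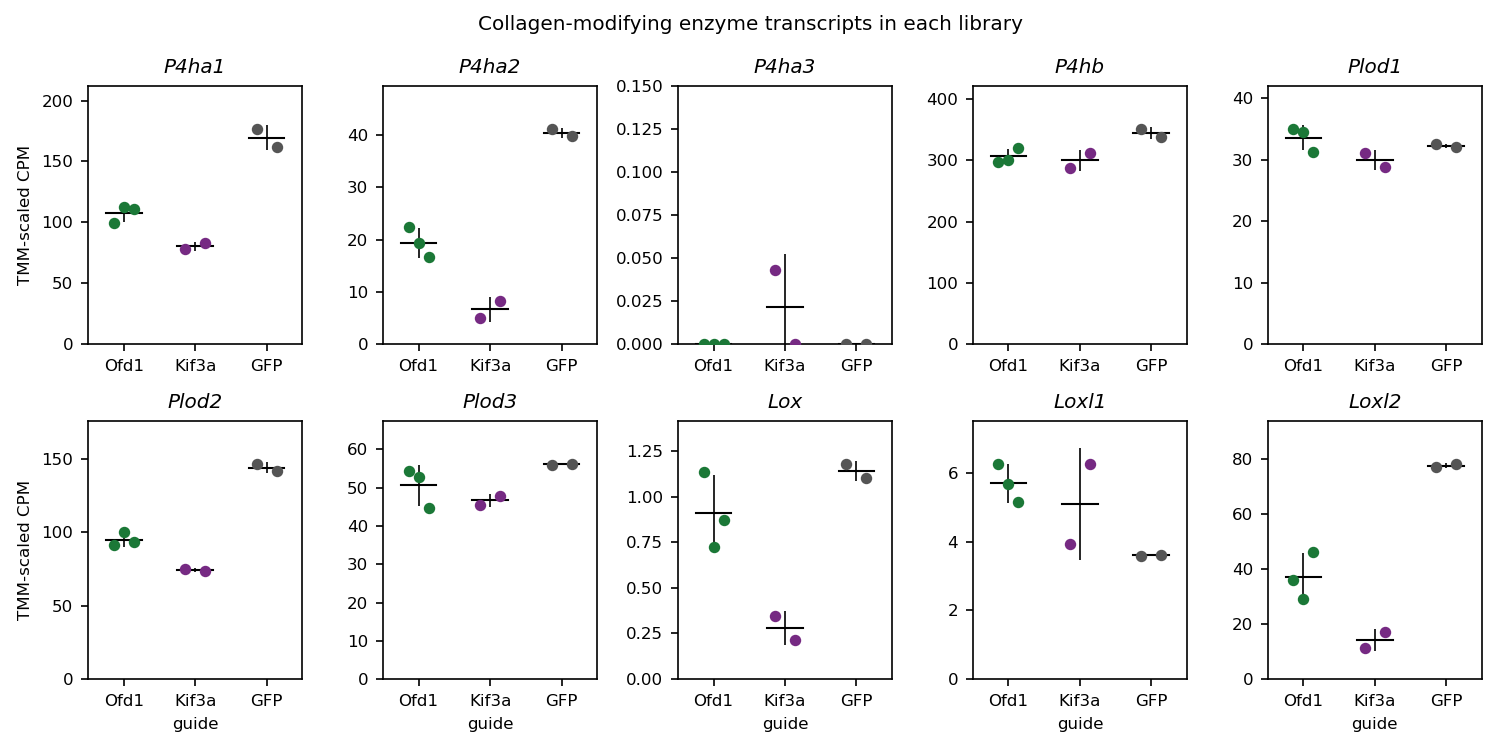
Level of each member (vertical axis, TMM-scaled CPM, from 0, a different scale in each panel) in Ofd1 CRISPR (left, n = 3), Kif3a CRISPR (middle, n = 2) and GFP control (right, n = 2). Points are libraries, horizontal lines group means and vertical lines ± SD; P4ha1, P4ha2, Plod2 and Loxl2 have all Kif3a CRISPR points below all Ofd1 CRISPR points, and these below both controls.

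P4ha1, the catalytic subunit of the main form of the enzyme, had 99.5, 112 and 111 CPM in Ofd1 CRISPR, 77.9 and 82.9 CPM in Kif3a CRISPR, and 177 and 162 CPM in GFP control. The 3 groups did not overlap. Over all mutant libraries its log2 fold change was −0.82 (SE 0.0672, adjusted p = 2.69e-05, edgeR quasi-likelihood test with Benjamini-Hochberg adjustment, as for every adjusted p here). It fell with either guide: the mean in Ofd1 CRISPR was 63.6% of that in GFP control (log2 fold change −0.65, SE 0.0749, adjusted p = 0.000378) and the mean in Kif3a CRISPR 47.5% (−1.08, SE 0.0842, adjusted p = 1.64e-05). Both guide comparisons share the GFP control libraries and are not independent of each other.

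P4ha2, the alternative catalytic subunit, had 22.3, 19.3 and 16.6 CPM in Ofd1 CRISPR, 4.97 and 8.36 CPM in Kif3a CRISPR, and 41.1 and 39.7 CPM in GFP control. Again no group overlapped another, and the Kif3a CRISPR libraries were the lowest. Over all mutant libraries the log2 fold change of P4ha2 was −1.68 (SE 0.142). Its mean in Ofd1 CRISPR was 48.0% of that in GFP control (log2 fold change −1.06, SE 0.156), and its mean in Kif3a CRISPR 16.5% (−2.62, SE 0.195); these values are given as a description, since P4ha2 was picked for its difference between guides. The Kif3a CRISPR libraries differed from each other, and leaving out 1 library at a time gave log2 fold changes of −3.02 to −2.27 for Kif3a CRISPR over GFP control.

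P4ha2 also lost share among the catalytic subunits. Per kb of transcript it made up 28.6%, 23.5% and 21.1% of the summed alpha-subunit mRNA in Ofd1 CRISPR, 10.2% and 15.3% in Kif3a CRISPR, and 29.4% and 30.4% in GFP control. All 5 mutant libraries were below both controls, Ofd1 CRISPR replicate 1 by the least. The Kif3a CRISPR libraries were furthest below, which is only a description, since P4ha2 was picked for its difference between guides. With merged exons as length, an alternative chosen after seeing the data, the shares were 12.9%, 10.2% and 8.96% in Ofd1 CRISPR, 4.03% and 6.24% in Kif3a CRISPR, and 13.3% and 13.9% in GFP control, in the same order of groups. The third alpha subunit, P4ha3, had 0 counts in 6 libraries and 1 count in Kif3a CRISPR replicate 1; 3 counts would correspond to 0.130 to 0.167 CPM, an upper limit for counting error only.

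P4hb, which holds the alpha subunits in soluble form and also works as a disulfide isomerase for other proteins, had 298, 301 and 320 CPM in Ofd1 CRISPR, 288 and 312 CPM in Kif3a CRISPR, and 351 and 338 CPM in GFP control. Every mutant library was below both controls, by a small margin. The log2 fold change over all mutant libraries was −0.18 (SE 0.0620, adjusted p = 0.0564), with −0.17 (adjusted p = 0.116) for Ofd1 CRISPR and −0.20 (adjusted p = 0.0844) for Kif3a CRISPR. The result lies close to the threshold: over all mutant libraries P4hb passed with Ofd1 CRISPR replicate 3 omitted (0.0256) and with DESeq2 on all libraries (0.0371), and it passed in Kif3a CRISPR when only that group and GFP control were fitted (0.0426).

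**Figure D2:**
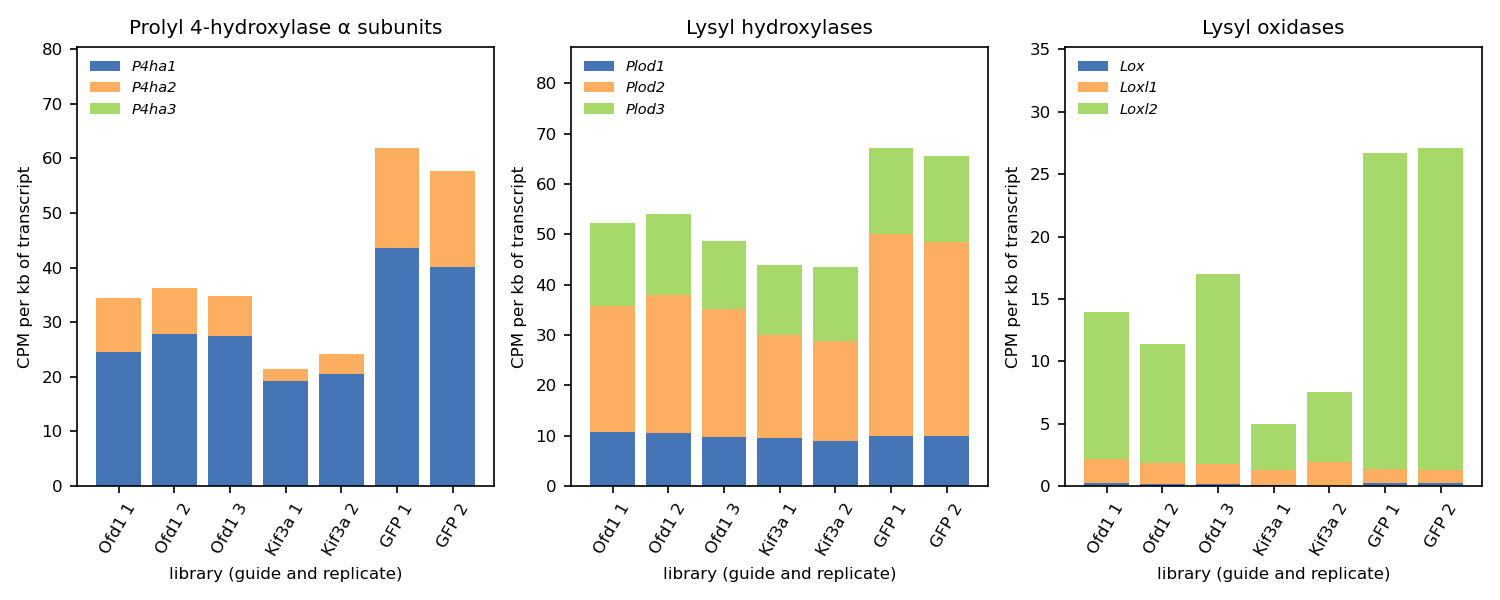
Summed level of each enzyme family per library (vertical axis, CPM per kb of transcript, from 0; horizontal axis, libraries of Ofd1 CRISPR, Kif3a CRISPR and GFP control from left to right), with coloured segments for the genes. In the alpha subunits both segments are shorter in the mutants, in the lysyl hydroxylases the Plod2 segment changes most, and in the lysyl oxidases nearly all of the height is Loxl2.

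Among the lysyl hydroxylases the change was in Plod2, which acts on the telopeptides of collagen. Plod2 had 91.2, 99.9 and 93.2 CPM in Ofd1 CRISPR, 75.0 and 73.4 CPM in Kif3a CRISPR, and 147 and 141 CPM in GFP control. As for P4ha1, the 3 groups did not overlap and GFP control was highest. Plod2 fell in each comparison, with log2 fold changes of −0.74 over all mutant libraries (SE 0.0598, adjusted p = 2.42e-05), −0.60 in Ofd1 CRISPR (SE 0.0665, adjusted p = 0.000306) and −0.96 in Kif3a CRISPR (SE 0.0746, adjusted p = 1.64e-05). Its share of the summed lysyl hydroxylase mRNA per kb was 47.6% to 52.3% in Ofd1 CRISPR, 46.0% to 46.6% in Kif3a CRISPR and 58.8% to 59.6% in GFP control. The annotation used here also has a gene on the opposite strand, Gm38391, over Plod2 exons. Since the strand setting of the counting was not stated, reads from both cannot be told apart.

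Plod1, which hydroxylates lysines within the triple helix, had 35.0, 34.5 and 31.3 CPM in Ofd1 CRISPR, 31.1 and 28.8 CPM in Kif3a CRISPR, and 32.5 and 32.0 CPM in GFP control. The Ofd1 CRISPR libraries lay on both sides of the controls, and the log2 fold change over all mutant libraries was −0.01 (adjusted p = 0.959). Plod3, which also carries a glycosyltransferase activity, had 54.5, 52.7 and 44.6 CPM in Ofd1 CRISPR, 45.5 and 47.9 CPM in Kif3a CRISPR, and 56.0 and 56.2 CPM in GFP control. All mutant libraries were below both controls, with a log2 fold change of −0.20 (SE 0.0808, adjusted p = 0.104) over all of them, and the adjusted p was 0.0421 without Ofd1 CRISPR replicate 1. Plod3 shares exonic sequence with Znhit1 on the opposite strand, and the strand setting of the counting was not stated, so reads from both cannot be told apart.

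Loxl2, the most abundant of Lox, Loxl1 and Loxl2 and known for cross-linking collagen IV of basement membranes, had 36.0, 29.0 and 46.3 CPM in Ofd1 CRISPR, 11.3 and 17.0 CPM in Kif3a CRISPR, and 77.1 and 78.3 CPM in GFP control. The groups did not overlap, and the SD in CPM was largest in Ofd1 CRISPR (8.69, against 4.04 in Kif3a CRISPR with its lower mean). Over all mutant libraries the log2 fold change of Loxl2 was −1.63 (SE 0.148). As for P4ha2, this value and those per guide are a description. The mean in Ofd1 CRISPR was 47.8% of that in GFP control (log2 fold change −1.06, SE 0.165) and the mean in Kif3a CRISPR 18.2% (−2.47, SE 0.201). Leaving out 1 library at a time gave −1.25 to −0.92 for Ofd1 CRISPR and −2.79 to −2.19 for Kif3a CRISPR. The annotation used here also has an antisense gene, Gm27177, over Loxl2 exons, with the same limit on strand.

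Lox, the founding lysyl oxidase, was near the detection limit, with 23, 13 and 17 counts (1.13, 0.723 and 0.874 CPM) in Ofd1 CRISPR, 8 and 4 counts (0.346 and 0.216 CPM) in Kif3a CRISPR, and 24 and 22 counts (1.18 and 1.10 CPM) in GFP control. The Kif3a CRISPR libraries were the lowest, while Ofd1 CRISPR and GFP control overlapped. Lox fell in Kif3a CRISPR (log2 fold change −1.97, SE 0.434, adjusted p = 0.00838) and over all mutant libraries (−0.98, SE 0.316, adjusted p = 0.0445); in Ofd1 CRISPR the value was −0.32 (SE 0.324, adjusted p = 0.549). Omitting Kif3a CRISPR replicate 1 (adjusted p = 0.0796), Kif3a CRISPR replicate 2 (0.0898) or GFP control replicate 1 (0.0551) ended the call in Kif3a CRISPR. The call over all mutant libraries ended when either Kif3a CRISPR library (0.161 and 0.230) or either control (0.240 and 0.181) was omitted, and with DESeq2 (0.162). An antisense gene of the annotation, AC161119.1, overlaps Lox.

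Loxl1, known for cross-linking elastin, was the member that rose. It had 6.26, 5.68 and 5.14 CPM in Ofd1 CRISPR, 3.93 and 6.25 CPM in Kif3a CRISPR, and 3.59 and 3.61 CPM in GFP control. Every mutant library was above both controls, Kif3a CRISPR replicate 1 by the least. The log2 fold change over all mutant libraries was 0.59 (SE 0.196, adjusted p = 0.0485). Omitting Ofd1 CRISPR replicate 1 (0.0673) or 2 (0.0795) or GFP control replicate 1 (0.222) or 2 (0.202) ended that call, as did DESeq2 on all libraries (0.0622). Neither guide alone passed. In Ofd1 CRISPR the value was 0.66 (SE 0.211, adjusted p = 0.0547), which did pass when Ofd1 CRISPR replicate 3 (0.0474) or either Kif3a CRISPR library (0.0338 and 0.0359) was omitted. In Kif3a CRISPR it was 0.49 (adjusted p = 0.160), with 0.80 when replicate 1 of that group was omitted and 0.13 when replicate 2 was. Per kb, Loxl1 made up 9.19% to 15.1% of the summed Lox, Loxl1 and Loxl2 mRNA in Ofd1 CRISPR, 24.0% to 25.2% in Kif3a CRISPR and 4.04% to 4.08% in GFP control, with Loxl2 at 83.6% to 89.7%, 74.2% to 74.6% and 95.0% to 95.1% in the same groups.

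**Figure D3:**
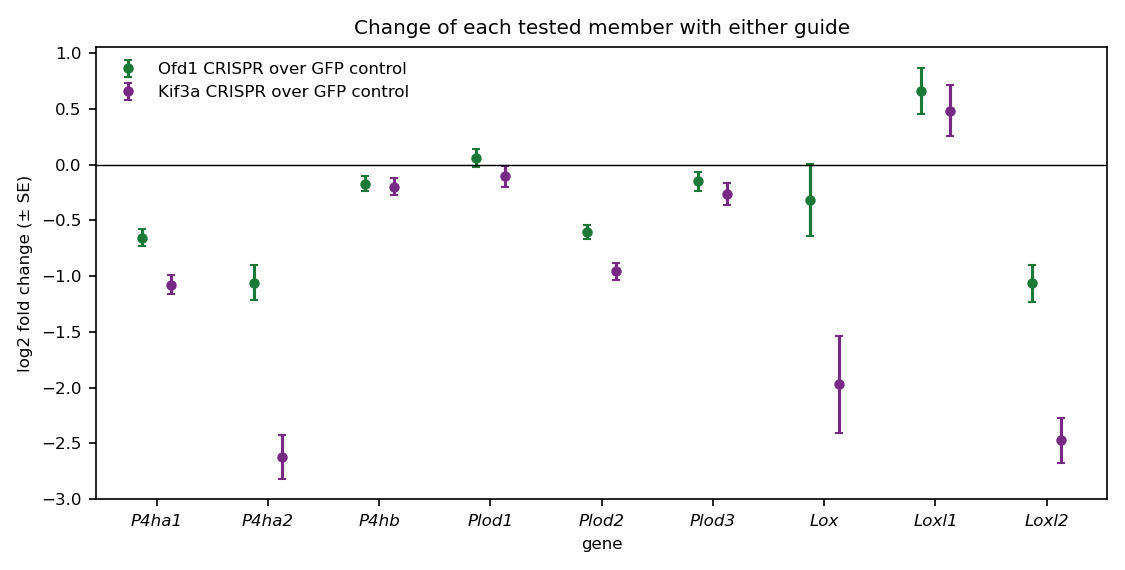
Log2 fold change over GFP control (vertical axis, ± SE from the edgeR fit) of the 9 tested members (horizontal axis) in Ofd1 CRISPR (green, left of each pair) and Kif3a CRISPR (purple, right of each pair). P4ha2 stands at −1.06 and −2.62 and Loxl2 at −1.06 and −2.47, whereas P4hb, Plod1 and Plod3 lie within 0.3 of 0; the controls are shared by both comparisons.

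Of the 7 tested members not picked for their difference between guides, 2 fell in Ofd1 CRISPR (P4ha1 and Plod2) and 5 did not pass; over all genes tested 8.09% were called lower and 6.79% higher in that comparison (14.9% in all). In Kif3a CRISPR 3 of the 7 fell (P4ha1, Plod2 and Lox) and 4 did not pass, against 10.9% of all tested genes called lower and 9.19% higher (20.1% in all). Among these 7, leaving out 1 library changed the call of Loxl1 alone in Ofd1 CRISPR, and the calls of Lox and Plod3 in Kif3a CRISPR (Plod3 passed without Ofd1 CRISPR replicate 1, adjusted p = 0.0456, or replicate 3, 0.0216, and when only Kif3a CRISPR and GFP control were fitted, 0.0176).

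Set directly against Kif3a CRISPR, Ofd1 CRISPR had higher levels of several members, and these values describe the difference by which the set was drawn up. The log2 fold change of Ofd1 CRISPR over Kif3a CRISPR was 1.56 (SE 0.189) for P4ha2 and 1.41 (SE 0.192) for Loxl2. Without Kif3a CRISPR replicate 1 the P4ha2 value was 1.21, and without Kif3a CRISPR replicate 2 it was 1.97. Lox had 1.65 (SE 0.421), P4ha1 0.42 (SE 0.0778) and Plod2 0.35 (SE 0.0689), and P4hb (0.03), Plod1 (0.16), Plod3 (0.12) and Loxl1 (0.18) were closer to 0. P4ha1, P4ha2, Plod2 and Loxl2 had every Kif3a CRISPR library below every Ofd1 CRISPR library and these below both controls, an order held by 4.52% of all tested genes; since the rule used this contrast, nothing is read from that count. Over all tested genes 23 differed between Ofd1 CRISPR and Kif3a CRISPR (0.179%). Omitting Kif3a CRISPR replicate 1 left 0 (edgeR; 555 had an unadjusted p under 0.05), omitting its replicate 2 left 12 and omitting Ofd1 CRISPR replicate 1 gave 50; DESeq2 with all libraries called 107.

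**Figure D4:**
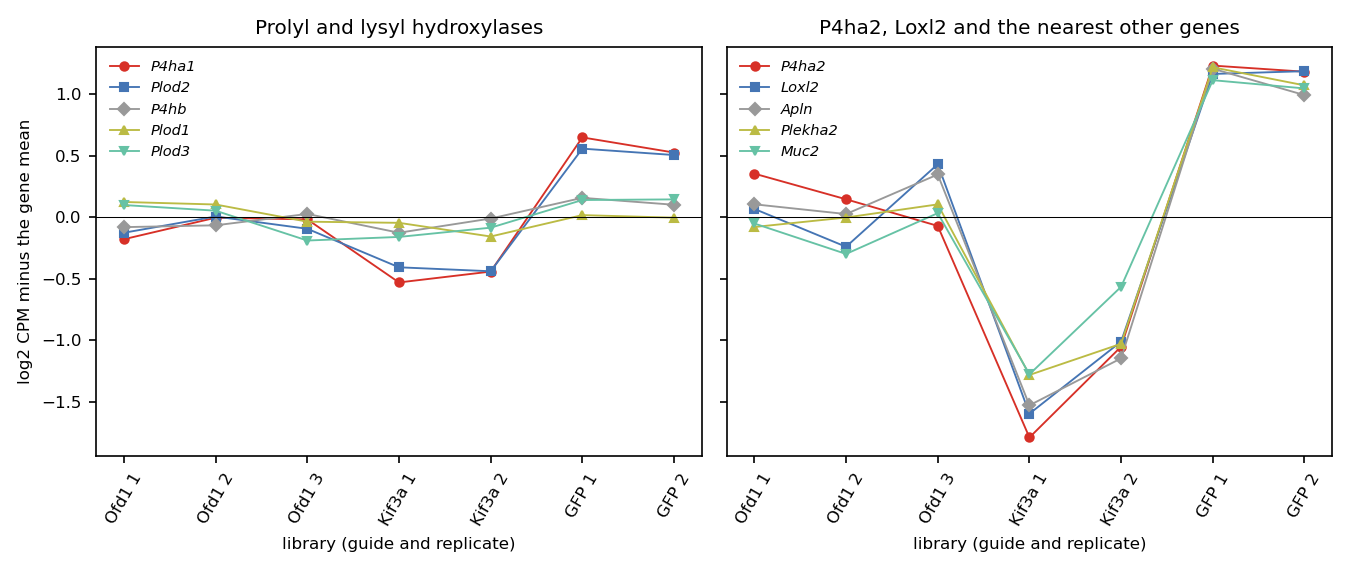
Profile of each gene over the 7 libraries (vertical axis, log2 CPM minus the mean of the gene; horizontal axis, libraries of Ofd1 CRISPR, Kif3a CRISPR and GFP control from left to right; the lines only join points of 1 gene). P4ha1 and Plod2 run close together in the left panel, at a root mean square difference of 0.0683, and in the right panel P4ha2 and Loxl2 run with Apln, Plekha2 and Muc2.

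The profiles of P4ha2 and Loxl2 were compared with those of all 12874 other tested genes by the root mean square difference of centred log2 CPM over the 7 libraries. Nearest to Loxl2 were Apln (0.142), which encodes the peptide ligand apelin, Plekha2 (0.207) and Muc2 (0.267), and P4ha2 was the fourth. Nearest to P4ha2 were Apln (0.229), Plekha2 (0.271) and Loxl2 (0.274). P4ha2 and Loxl2 were both chosen by their difference between the guides, which enters this measure, so their closeness to each other is in part fixed by that choice. Apln averaged 7.92 CPM in Ofd1 CRISPR, 2.75 CPM in Kif3a CRISPR and 15.3 CPM in GFP control. P4ha1 and Plod2 were each other's nearest gene among all tested genes, with a difference of 0.0683. This pair was looked at after its values were seen.

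Other genes of collagen biosynthesis were taken from lists made with earlier results of these data known. Of all tested genes 10.4% were called higher and 12.1% lower over all mutant libraries. The shares were 6.79% and 8.09% in Ofd1 CRISPR, and 9.19% and 10.9% in Kif3a CRISPR. Of the prolyl 3-hydroxylase complex, 1 of 6 tested genes rose over all mutant libraries and 5 did not pass, the median log2 fold change being 0.04. The gene was Ppib, the cyclophilin of the complex, with 347, 321 and 343 CPM in Ofd1 CRISPR, 349 and 348 CPM in Kif3a CRISPR, and 292 and 285 CPM in GFP control (log2 fold change 0.24, SE 0.0597, adjusted p = 0.0142). Omitting either control ended the Ppib call (0.119 and 0.162). The same gene was the 1 of 6 that passed in Ofd1 CRISPR and in Kif3a CRISPR, where leaving out either control, either Kif3a CRISPR library or, for Ofd1 CRISPR, its replicate 1 ended the call.

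Of the collagen chaperones and glycosyltransferases, 8 of 10 were tested: 1 rose over all mutant libraries (Fkbp10, 0.26, adjusted p = 0.0252) and 7 did not pass, with a median of −0.06. The shares called over all tested genes were 22.5% over all mutant libraries, 14.9% in Ofd1 CRISPR and 20.1% in Kif3a CRISPR. Fkbp10 encodes a peptidyl-prolyl isomerase that acts with lysyl hydroxylase, and its call ended when either Kif3a CRISPR library (0.0565 and 0.0504) or either control (0.2002 and 0.162) was omitted. In Ofd1 CRISPR 0 of 8 passed with edgeR and 0 with DESeq2 (2 had an unadjusted p under 0.05 with edgeR), and Fkbp10 alone did when Ofd1 CRISPR replicate 3 was omitted. Omitting Ofd1 CRISPR replicate 3 made 1 gene of the list fall over all mutant libraries. In Kif3a CRISPR 1 rose (Fkbp10, 0.30, adjusted p = 0.0308) and 1 fell (Colgalt2, a collagen galactosyltransferase, −0.77, adjusted p = 0.0395), and each of these calls ended when any one of the Kif3a CRISPR or GFP control libraries was omitted, and with DESeq2 on all libraries (0.0559 for Fkbp10 and 0.1196 for Colgalt2). With Ofd1 CRISPR replicate 3 omitted, 2 fell. Serpinh1, the collagen chaperone HSP47, was singled out after its values were seen: it had 0 to 0.278 CPM in all 7 libraries and was not tested.

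Of the remaining lysyl oxidases, Loxl3 had 4.44, 4.06 and 4.93 CPM in Ofd1 CRISPR, 3.76 and 4.15 CPM in Kif3a CRISPR, and 4.96 and 4.86 CPM in GFP control (log2 fold change over all mutant libraries −0.21, adjusted p = 0.354), and Loxl4 had too few counts to be tested. Of 9 procollagen processing genes 4 were tested and 1 fell in each comparison, Adamts14, a procollagen N-proteinase. The shares of all tested genes called lower were 12.1% over all mutant libraries, 8.09% in Ofd1 CRISPR and 10.9% in Kif3a CRISPR. Adamts14 had 30.5, 47.3 and 45.1 CPM in Ofd1 CRISPR, 29.8 and 50.3 CPM in Kif3a CRISPR, and 64.3 and 66.4 CPM in GFP control (−0.69, SE 0.176, adjusted p = 0.0160 over all mutant libraries). All mutant libraries were lower, but replicate 1 of either guide stood apart, and the call ended when either control was omitted (0.0780 and 0.0905). DESeq2 gave 0.0713. The calls of Adamts14 in Ofd1 CRISPR (adjusted p = 0.0381) and in Kif3a CRISPR (0.0377) also ended when either control, or replicate 1 of the guide tested, was omitted, and with DESeq2 on all libraries (0.137 in Ofd1 CRISPR and 0.148 in Kif3a CRISPR); 2 genes of the list fell in Kif3a CRISPR when Kif3a CRISPR replicate 2 was omitted, or Ofd1 CRISPR replicate 1 or 3.

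Of 18 collagen and elastic fibre genes 15 were tested, and over all mutant libraries 2 rose (Eln and Col18a1), 4 fell (Fbln5, Fn1, Col2a1 and Col6a2) and 9 did not pass, with a median of −0.04, against 12.1% of all tested genes called lower and 10.4% higher; with GFP control replicate 2 omitted, 1 fell. Eln, which encodes elastin, had 73.9, 49.9 and 49.8 CPM in Ofd1 CRISPR, 48.5 and 40.0 CPM in Kif3a CRISPR, and 20.4 and 17.2 CPM in GFP control (1.47, SE 0.164, adjusted p = 0.000135). Col18a1, the source of endostatin, averaged 8.67 CPM in Ofd1 CRISPR, 6.69 CPM in Kif3a CRISPR and 2.78 CPM in GFP control (1.49, SE 0.261, adjusted p = 0.00201). Both rose, and neither group of mutant libraries overlapped the controls.

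Fbln5, an elastic fibre protein, averaged 0.595 CPM in Ofd1 CRISPR, 0.680 CPM in Kif3a CRISPR and 2.61 CPM in GFP control (−2.06, SE 0.267, adjusted p = 0.000328). Fn1, fibronectin, averaged 45.7 CPM in Ofd1 CRISPR, 41.9 CPM in Kif3a CRISPR and 62.1 CPM in GFP control (−0.49, SE 0.0926, adjusted p = 0.00308), and its call ended when GFP control replicate 2 was omitted (0.104). Among genes named after their values were seen, the fibrillar collagen Col1a1 averaged 0.536 CPM in Ofd1 CRISPR, 0.426 CPM in Kif3a CRISPR and 0.672 CPM in GFP control, and Col1a2, Col3a1 and Col5a2 were at 0 to 2 counts in every library. The network collagen Col4a1 was more abundant, at 43.2 CPM in Ofd1 CRISPR, 42.8 CPM in Kif3a CRISPR and 39.5 CPM in GFP control (0.13, adjusted p = 0.2002). Of the 15 in Ofd1 CRISPR, 2 rose and 3 fell, the number that fell being 1 when GFP control replicate 2 was omitted and 2 with DESeq2. Of the 15 in Kif3a CRISPR, 2 rose and 4 fell, the number that fell being 2 with DESeq2. Over all tested genes, 6.79% were called higher and 8.09% lower in Ofd1 CRISPR, and 9.19% and 10.9% in Kif3a CRISPR. Those that fell numbered 0 with Kif3a CRISPR replicate 1 omitted, 2 with GFP control replicate 1 omitted and 1 with GFP control replicate 2 omitted, and those that rose numbered 1 with any 1 Kif3a CRISPR or control library omitted.

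**Figure D5:**
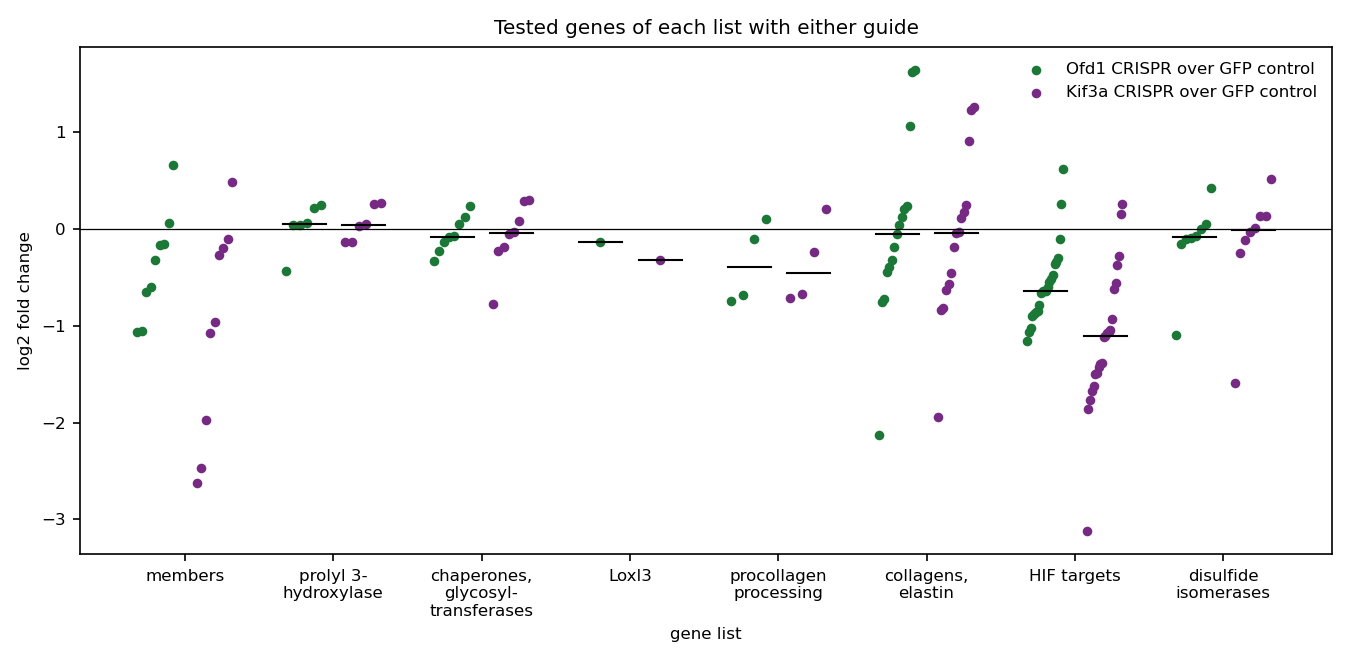
Log2 fold change over GFP control (vertical axis) of each tested gene by list (horizontal axis), in Ofd1 CRISPR (green, left) and Kif3a CRISPR (purple, right); horizontal lines are list medians, left out for the members. The HIF targets have medians of −0.64 and −1.11, the 4 procollagen processing genes of −0.39 and −0.46, and the other lists with more than 1 gene of within 0.1 of 0; the collagen and elastin list spreads to both sides.

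Because several members are known HIF targets, 22 other HIF targets were set beside them, and most moved the same way. This list, too, was made with earlier results of these data known. Over all mutant libraries 20 of 22 fell, 1 rose (Pfkfb4) and 1 did not pass (Ndrg1), with a median log2 fold change of −0.82. Of all tested genes 12.1% were called lower and 10.4% higher in that comparison. In Ofd1 CRISPR 18 fell and 4 did not pass (median −0.64), against 8.09% of all tested genes called lower. In Kif3a CRISPR 20 fell and 2 did not pass (median −1.11), against 10.9% called lower. The medians of all tested genes were 0.003 and 0.008 in these 2 comparisons. With 1 library left out at a time, 16 to 20 fell over all mutant libraries, 13 to 19 in Ofd1 CRISPR and 17 to 20 in Kif3a CRISPR. The rise of Pfkfb4 (0.26, adjusted p = 0.0287), a regulator of glycolysis, ended when Kif3a CRISPR replicate 1 or either control was omitted, and with DESeq2, which called 0 of the 22 higher. It passed in Ofd1 CRISPR when its replicate 3 was omitted, and in Kif3a CRISPR when Ofd1 CRISPR replicate 1 or 3 was.

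Egln3, the HIF prolyl hydroxylase that uses the same cofactors as P4ha1, had 79.3, 91.3 and 89.1 CPM in Ofd1 CRISPR, 44.6 and 56.2 CPM in Kif3a CRISPR, and 165 and 157 CPM in GFP control (−1.21, SE 0.0838, adjusted p = 1.14e-05 over all mutant libraries). Slc2a3, a glucose transporter, fell by 0.55 in Ofd1 CRISPR (adjusted p = 0.000400) and by 1.11 in Kif3a CRISPR (adjusted p = 8.42e-06). Pfkfb3, an activator of glycolysis, fell by 0.64 in Ofd1 CRISPR (adjusted p = 0.000785) and by 1.49 in Kif3a CRISPR (adjusted p = 8.42e-06). In each of these genes, as in P4ha1, P4ha2, Plod2 and Loxl2, no group overlapped another and Kif3a CRISPR was lowest. That order was held by 4.52% of all tested genes. The rule used the contrast between the guides, and these HIF targets were named by smallest p, so nothing is read from the likeness. The part of HIF activity in the members' levels was not tested.

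The list of disulfide isomerases related to P4hb also holds their oxidase Ero1l. Of all tested genes 22.5% were called over all mutant libraries (12.1% lower and 10.4% higher), 14.9% in Ofd1 CRISPR and 20.1% in Kif3a CRISPR. Nothing particular to this list is read from its counts. Over all mutant libraries 1 of 8 rose (Pdia5), 1 fell (Ero1l) and 6 did not pass, with a median of −0.06 (2 fell with Ofd1 CRISPR replicate 3 omitted). Ero1l, the oxidase that recharges disulfide isomerases, had 35.5, 44.7 and 44.9 CPM in Ofd1 CRISPR, 29.7 and 29.6 CPM in Kif3a CRISPR, and 91.4 and 86.7 CPM in GFP control (−1.29, SE 0.0847, adjusted p = 9.84e-06). Pdia5 had 55.8, 50.7 and 48.1 CPM in Ofd1 CRISPR, 55.9 and 54.4 CPM in Kif3a CRISPR, and 41.2 and 35.9 CPM in GFP control (0.46, SE 0.0821, adjusted p = 0.00227), a call that ended when GFP control replicate 2 was omitted (0.0601). The same 2 genes passed in Ofd1 CRISPR, where omitting that control again ended the Pdia5 call (0.138). In Kif3a CRISPR they passed with Txndc5 (−0.25, adjusted p = 0.0341), whose call ended when Ofd1 CRISPR replicate 2 (0.0501) was omitted, or any one of the Kif3a CRISPR and control libraries (0.0689 to 0.214).

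Markers of other cell types were measured because fibroblasts and vessels are rich sources of these enzymes, and in bulk samples fewer cells of a type and less RNA per cell cannot be told apart. The 10 fibroblast markers summed to 81.4 to 171 CPM in Ofd1 CRISPR, 90.7 to 133 CPM in Kif3a CRISPR, and 259 to 272 CPM in GFP control. Nearly all of that was Pdgfra, with 79.5 to 168 CPM in Ofd1 CRISPR, 89.5 to 131 CPM in Kif3a CRISPR, and 256 to 269 CPM in GFP control; 1 to 5 of the 10 were at 0 in a library, Dcn was at 0 in 6 libraries, and Col1a2 and Col3a1 had at most 2 counts. The 6 endothelial markers summed to 0.986 to 1.56 CPM in Ofd1 CRISPR, 0.518 and 0.701 CPM in Kif3a CRISPR, and 2.01 and 2.15 CPM in GFP control, and the 1 that could be tested, Cdh5, had a log2 fold change of −1.30 over all mutant libraries (SE 0.329). The 12 macrophage markers summed to 3.24 to 4.62 CPM in Ofd1 CRISPR, 3.33 to 3.67 CPM in Kif3a CRISPR, and 16.6 and 2.96 CPM in GFP control. The 8 astrocyte and neural stem cell markers summed to 741 to 763 CPM in Ofd1 CRISPR, 716 to 719 CPM in Kif3a CRISPR, and 827 to 879 CPM in GFP control. The endothelial sums lay near the detection limit, with 2 to 4 of the 6 markers at 0 in a library. Of the 6 astrocyte and neural stem cell markers tested, 2 fell over all mutant libraries and 4 did not pass, against 12.1% of all tested genes called lower. Pdgfra and the endothelial and astrocyte sums, like P4ha1, P4ha2, Plod2 and Loxl2, were lower in all mutant libraries than in both controls. The same held for 20.7% of all tested genes. The part of these markers in the members' results was not tested.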

How the data were processed

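RNA was profiled with Illumina TruSeq Stranded mRNA libraries and single-end reads of 75 bases, per the labels' protocols. The authors deposited 1 table of raw counts for 24047 genes by symbol; STAR, DESeq2 and the mm9 build are named in the submitters' processing notes, and the counting tool, its strand setting and the treatment of multi-mapped reads were not given in the sources used here. The table holds 7 libraries of 17961767 to 23022701 counts.

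Counts were fitted with edgeR 4.0.16 (limma 3.58.1, R 4.3.3): filterByExpr on the groups, TMM normalization, the quasi-likelihood F test with all 7 libraries in 1 fit (4 residual degrees of freedom), and Benjamini-Hochberg adjustment over 12875 genes at a threshold of 0.05. The common biological coefficient of variation was 7.43%. CPM values are TMM-scaled, and SE is the log2 fold change divided by the square root of F. The comparison of all mutant libraries weighs each of these 5 equally. Alternatives were RLE factors, library totals, DESeq2 1.42.0, no filter on low counts, a mean of at least 10 CPM, a replicate block, only the libraries compared, and leaving out each library. The fit was tested on simulated data.

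Levels per kb use GENCODE M21 transcripts, and promoters are RefSeq's (GRCm38.p6); 6 of 10 members matched. Members and lists were chosen with earlier results of these data known. Named genes are the members, the targeted genes, up to 3 genes per list and comparison against GFP control with the smallest p among those that passed, Loxl3, and the 3 genes nearest in profile to P4ha2 and to Loxl2; others are named to account for small counts. P4ha2 and Loxl2 are given no p-value, and no member is given one between guides.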

Additional observations from a re-analysis of the deposited data

How the results depend on the processing

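The calls of P4ha1 and Plod2 over all mutant libraries were kept in all 13 alternatives run, and those for each guide in all 14. Over the 13 the log2 fold change ranged from −0.88 to −0.75 for P4ha1 and −0.80 to −0.69 for Plod2. As a description, it ranged from −1.90 to −1.36 for P4ha2 and −1.86 to −1.34 for Loxl2. The members called higher over all mutant libraries (1, Loxl1) became 0 with RLE factors, 0 with DESeq2 and 0 with a mean of at least 10 CPM, which leaves Loxl1 out, and 0 to 1 when a library was left out. Those called lower, with P4ha2 and Loxl2 counted, were 5 with all libraries and 4 to 6 when a library was left out. In Ofd1 CRISPR 0 members were called higher, against 1 (Loxl1) with library totals alone, 1 with no filter on low counts, 1 with the replicate block, 1 with only the libraries of both groups, and 0 to 1 when a library was left out. At an unadjusted p Loxl1 was under 0.05 there. In Kif3a CRISPR the members called lower (3) became 5 with only the libraries of both groups, which adds P4hb and Plod3, and 2 to 4 when a library was left out. Plod1 over all mutant libraries changed sign without passing any test: 0.026 with library totals alone, 0.022 with the replicate block and −0.037 to 0.032 when a library was left out. Lox also lost its call over all mutant libraries with library totals alone (adjusted p = 0.0501) and no filter (0.0688). Genes called in the whole table, when a library was left out, numbered 1061 to 3668 over all mutant libraries (2895 with all), 664 to 2831 in Ofd1 CRISPR (1915), 686 to 3119 in Kif3a CRISPR (2584) and 0 to 50 between Ofd1 CRISPR and Kif3a CRISPR (23). The last was 107 with DESeq2 and 80 with no filter. Signs of a pairing by replicate number were mixed. Deviations of same-numbered libraries correlated at 0.152 to 0.234 between Ofd1 CRISPR and the other groups but at −0.00857 between Kif3a CRISPR and GFP control. With the replicate block, which leaves Ofd1 CRISPR replicate 3 alone in its block, 3496 genes were called in Ofd1 CRISPR, 191 between the guides, 4148 over all mutant libraries and 3575 in Kif3a CRISPR. P4hb then passed over all mutant libraries (adjusted p = 0.0216) and in Ofd1 CRISPR (0.0463), Plod3 in Kif3a CRISPR (0.0166), Txndc5 over all mutant libraries (0.0498) and Fkbp10 in Ofd1 CRISPR (0.0163). Unless a change in the genes or libraries used is named, the cause was not tested. Depth limits Lox, with 4 to 24 counts, and P4ha3, with at most 1 count.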
